A study of Homo sapiens with 18 samples.

Results

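The genes described here are 39 human genes of DNA double-strand break repair, crosslink repair, the damage checkpoint and mismatch repair, listed by name. The list was chosen with earlier results of these data known, so its shares beside those of all genes are descriptions. All 39 were in the deposited table of 26443 genes with values, and 35 passed the filter on low values used for testing (1 RPKM or more in 3 or more of 18 libraries; RPKM is a read count scaled to transcript length and library size). RNA was sequenced from LNCaP, a line of androgen receptor-positive prostate cancer cells that secretes prostate-specific antigen. The 18 libraries formed 6 groups of 3. These were FOXA1 and HIF1A shRNA together (shFOXA1+shHIF1A, here doubly infected), HIF1A shRNA (shHIF1A), FOXA1 shRNA (shFOXA1), FOXA1 shRNA with KC7F2, the pGIPZ control vector with KC7F2, and the pGIPZ control vector alone. Lentivirus was left for 5 days. All 6 groups, the controls among them, were given 100 µM CoCl2 for 24 h, a chemical that mimics hypoxia and stabilises HIF1A protein, and the KC7F2 groups were given 40 µM KC7F2, a small-molecule HIF1A inhibitor, for 24 h. FOXA1 is a pioneer factor for the androgen receptor. HIF1A is the oxygen-regulated subunit of the hypoxia transcription factor. The labels speak of triplicates without saying whether each was its own culture. The p-values therefore cover the spread among these libraries, which may be technical. Nor do the labels say how many different shRNAs hit each target or which vehicle the KC7F2 controls received, and no untreated culture without CoCl2 is described here.

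A double-strand break is first bound by sensor proteins. Its ends are then trimmed for homologous recombination, which copies the sister chromatid in S and G2 phase, or joined directly by Ku-dependent end joining. The Fanconi anemia proteins open the way for recombination at crosslinked DNA, the ATM and ATR kinases and their effectors hold the cell cycle meanwhile, and the mismatch repair proteins correct replication errors. Recombination and Fanconi genes are frequent targets of E2F transcription factors, which turn on genes for DNA replication, and loss-of-function mutations in several of them mark the advanced prostate cancers that are treated with inhibitors of PARP1. LNCaP is known as a mismatch repair-deficient line.

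The shRNAs lowered their targets. FOXA1 mRNA averaged 64.5 ± 5.77 RPKM in doubly infected, 119.9 ± 3.06 in shHIF1A and 34.1 ± 1.51 in shFOXA1 libraries, against 97.5 ± 22.7 RPKM in control libraries (SD, n = 3 each). HIF1A mRNA averaged 4.32 ± 0.245 RPKM in doubly infected, 3.56 ± 0.642 in shHIF1A and 89.9 ± 8.998 in shFOXA1 libraries, against 23.1 ± 7.91 RPKM in control libraries (SD, n = 3 each). FOXA1 was higher with both shRNAs than with the FOXA1 shRNA alone (a difference of 0.91 ± 0.16 on the log2 scale, adjusted p = 0.000302), and HIF1A mRNA was higher with the FOXA1 shRNA than in control. Library sizes, read from the spacing of the lowest values, were 3.21 to 11.96 in units of 1000000 reads. The 6 shFOXA1 and doubly infected libraries had 3.21 to 8.34 and the 3 control libraries 10.2 to 11.5. Control 1 and control+KC7F2 1 and 3 stood apart with more signal in short genes (a short minus long difference of 0.508, 0.455 and 0.357 log2 units, against -0.23 to 0.08 in the other 15). All 8 luminal markers of LNCaP were found in every library, and of 9 markers of other cell types PTPRC, CD14, CD3E, COL1A2, PECAM1 and CDH5 were at 0 in 5 to 17 of 18 libraries and never above 0.427 RPKM. Summed RPKM of those 9 markers, mostly COL1A1 and ACTA2, was 7.92 to 9.62 in doubly infected, 11.9 to 13.5 in shHIF1A, 14.2 to 15.1 in shFOXA1, 7.75 to 8.83 in shFOXA1+KC7F2, 5.37 to 6.5 in control+KC7F2 and 7.01 to 9.02 in control libraries, and their part in the results was not tested.

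Many repair genes were lower after both depletions together, after HIF1A depletion and after FOXA1 depletion, and none was called with KC7F2 in control cells. Fold changes are log2 differences of RPKM + 0.5 with their SE, a scale on which low genes appear to change less than they did. The words rose and fell are kept for an adjusted p below 0.05 from limma (Benjamini-Hochberg over the 12900 genes of each comparison). FOXA1 knockdown lowered 16 of 35 members and raised none, where 14.6% of all tested genes fell and 9.52% rose. HIF1A knockdown lowered 22 and raised none, against 16.1% of all genes lower and 25.9% higher. Double knockdown lowered 23 and raised none, with 19.5% of all genes lower and 22.6% higher. FOXA1 knockdown with KC7F2, set against control, lowered 17 and raised 1, with 17.4% of all genes lower and 10.1% higher. Median changes of the 35 were -0.43 in the doubly infected group, -0.49 with HIF1A knockdown and -0.30 with FOXA1 knockdown, beside medians over all tested genes of 0.03, 0.07 and -0.09.

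**Figure D1:**
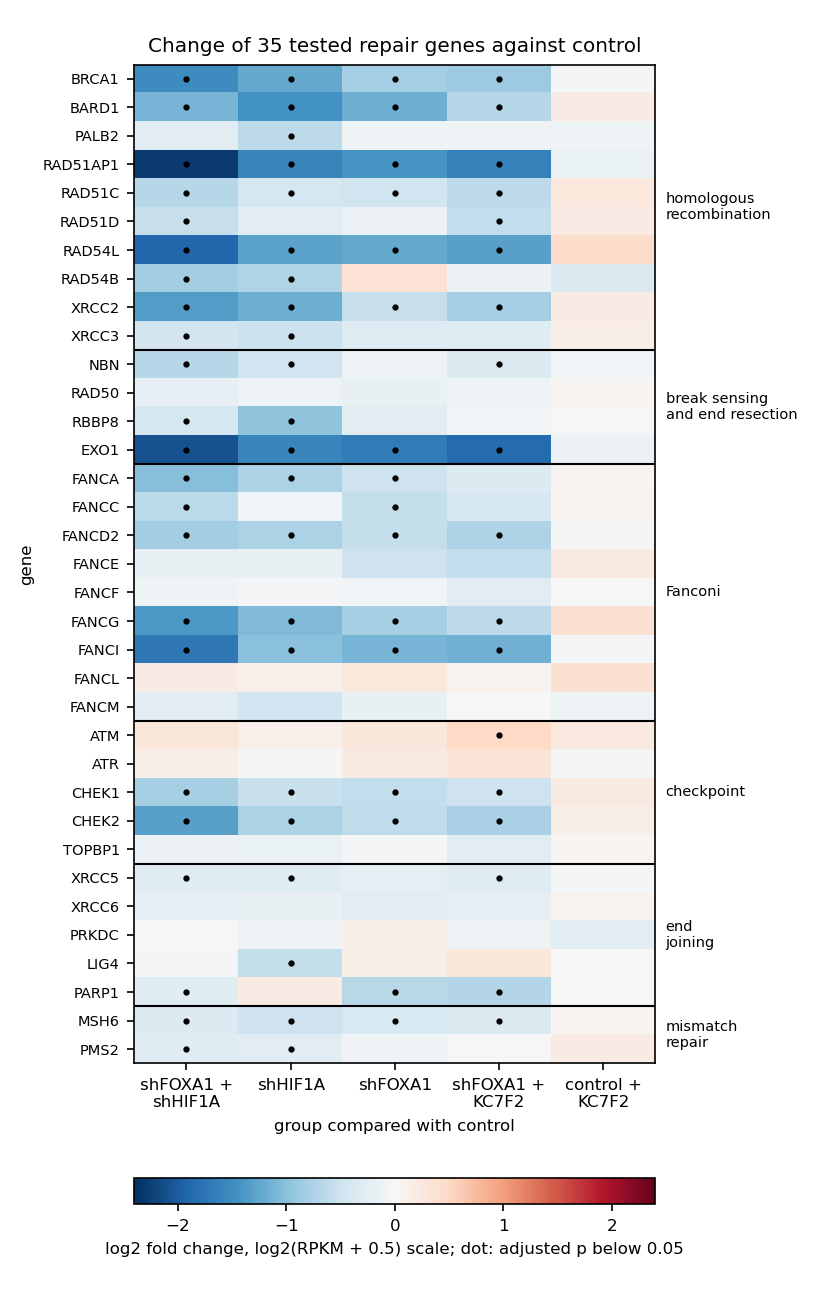
Colour shows the log2 fold change of each of the 35 tested repair genes (rows, grouped by role) in 5 groups against control (columns), and dots mark an adjusted p below 0.05. The first 4 columns hold 23, 22, 16 and 18 dots and the last, for KC7F2 in control cells, holds none; ATM is the 1 dotted gene that was higher.

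**Figure D2:**
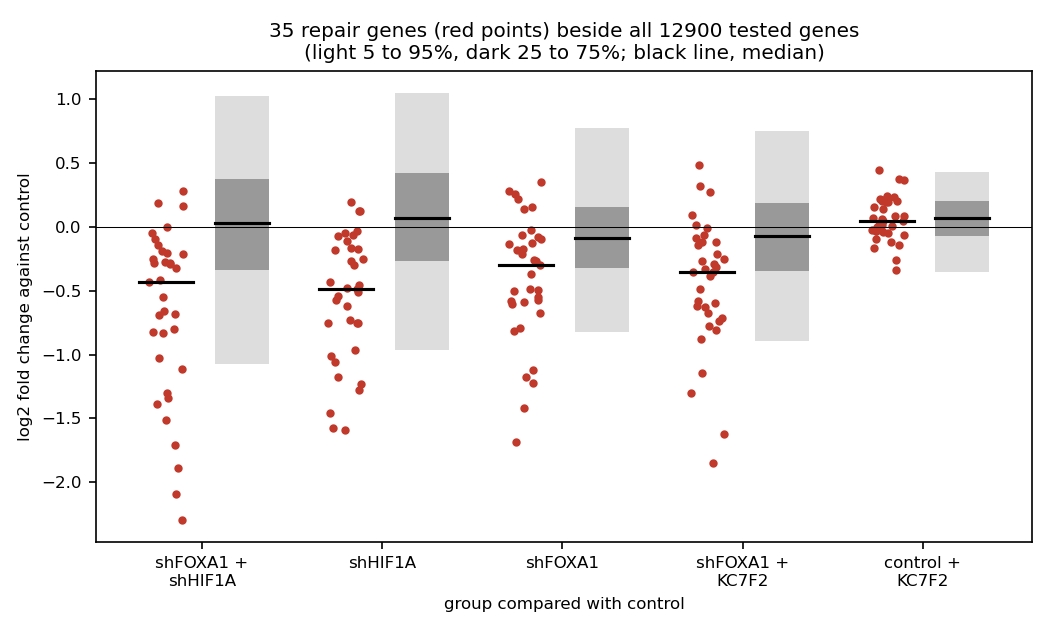
Red points are the log2 fold changes of the 35 repair genes in each group against control, and the bars beside them show where 90% (light) and 50% (dark) of all 12900 tested genes lie, with black lines at the medians. The points lie mostly below zero in the 4 groups with an shRNA against FOXA1 or HIF1A, down to -2.30 in the doubly infected group, and between -0.34 and 0.45 in control+KC7F2.

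Without the 3 libraries with more short-gene signal, 11, 19 and 18 members were lower and none higher under FOXA1, HIF1A and double knockdown. Shares over all genes are not given for that fit, so these counts describe the members alone. RAD51C, XRCC2, FANCC, CHEK2 and MSH6 were the calls lost that way with FOXA1 knockdown (adjusted p = 0.14, 0.236, 0.0541, 0.241 and 0.0719). Other scaling moved the split over all genes in FOXA1 knockdown to 1535 higher and 1477 lower (median-ratio scaling), beside 1228 higher and 1883 lower as deposited, while the members split 0 higher and 11 lower. With HIF1A knockdown the same scaling gave 2805 genes higher and 2576 lower, beside 3347 and 2075, and members at 0 higher and 23 lower. A few members were called higher under another setting. They were RAD54B in FOXA1 knockdown (0.46, adjusted p = 0.0377) and FANCL in HIF1A knockdown (0.47, adjusted p = 0.0486) once a trend on gene length and GC content was removed. PARP1 was called higher in HIF1A knockdown under quantile normalisation (0.27, adjusted p = 0.0353) and without control 2 (0.27, adjusted p = 0.0369). These are bulk samples, in which fewer cells in a cycle phase and less RNA per cell cannot be told apart.

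Genes of cell division that are not repair genes moved in the same comparisons. Of 35 such genes tested (a list of 36), 35 fell with FOXA1 knockdown, 34 with HIF1A knockdown and 34 with both, with median changes of -1.38, -1.43 and -2.19. Their median change with KC7F2 in control cells was -0.07. Their summed level was 104 to 109.6 RPKM in doubly infected, 147 to 165 in shHIF1A, 164 to 165 in shFOXA1, 149 to 151 in shFOXA1+KC7F2, 393 to 433 in control+KC7F2 and 370.4 to 447 RPKM in control libraries. Among them NUSAP1, a spindle protein, fell by 1.66 ± 0.13 and RRM2, the ribonucleotide reductase subunit that supplies deoxynucleotides in S phase, by 1.97 ± 0.16 with FOXA1 knockdown. Their part in the repair gene changes was not tested.

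The stretches upstream of 4 members that differ in their response are shown because recombination and Fanconi genes are known E2F targets. These 4 were picked by hand as examples and do not stand for the other members. RAD54L and FANCG fell in every group with an shRNA, PARP1 fell with FOXA1 shRNA but not with HIF1A shRNA alone, and ATR was not called in any comparison against control. Each is printed 5′ to 3′ from RefSeq (GRCh38.p14), up to 250 bases before the annotated start and cut short at any earlier start in GENCODE 29, with capitals marking TTCCCGC or TTGGCGC, the E2F core, on either strand (GCGGGAA is TTCCCGC read on the other strand).
RAD54L, chr1:46247438-46247687, plus strand: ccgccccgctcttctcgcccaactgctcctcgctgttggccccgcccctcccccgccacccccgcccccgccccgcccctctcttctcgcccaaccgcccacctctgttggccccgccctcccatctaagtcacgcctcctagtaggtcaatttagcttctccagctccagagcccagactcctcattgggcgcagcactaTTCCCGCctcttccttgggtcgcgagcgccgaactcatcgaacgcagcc
FANCG, chr9:35080017-35080192, minus strand: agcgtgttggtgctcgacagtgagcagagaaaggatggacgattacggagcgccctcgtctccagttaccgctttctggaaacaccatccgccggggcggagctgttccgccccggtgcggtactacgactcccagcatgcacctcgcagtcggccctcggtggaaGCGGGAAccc
PARP1, chr1:226408094-226408343, minus strand: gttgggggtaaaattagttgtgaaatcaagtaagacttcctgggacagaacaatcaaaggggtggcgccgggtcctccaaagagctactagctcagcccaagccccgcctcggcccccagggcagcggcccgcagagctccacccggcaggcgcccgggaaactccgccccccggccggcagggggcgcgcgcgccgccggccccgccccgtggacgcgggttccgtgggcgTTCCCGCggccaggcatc
ATR, chr3:142578827-142578983, minus strand: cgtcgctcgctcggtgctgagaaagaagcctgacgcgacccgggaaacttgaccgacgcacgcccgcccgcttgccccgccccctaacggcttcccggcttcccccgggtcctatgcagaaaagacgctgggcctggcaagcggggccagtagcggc
The core lay 49 bases before the RefSeq start used for RAD54L, 84 bases before that of FANCG and 18 bases before that of PARP1, and these letters were not in the ATR stretch. Another RefSeq start of RAD54L had the core 124 bases before it. The stretches of RAD54L, FANCG and PARP1 were printed only where the core was present, so this contrast with ATR was fixed by the choice.

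Over 300-base windows (250 bases before to 50 after the start), the E2F core was found in 19 of the 34 members matched to RefSeq promoters (55.9%), in 18.0% of the 9254 tested genes and in 11.0% of all 27305 genes with such a window. The members with a match were BRCA1, BARD1, BRIP1, RAD51AP1, RAD51D, RAD54L, XRCC2, XRCC3, BLM, FANCA, FANCC, FANCD2, FANCE, FANCG, FANCL, TOPBP1, XRCC6, PARP1 and MSH6. Of these, FANCE, FANCL, TOPBP1 and XRCC6 were not called in any comparison against control. EXO1 and CHEK1, which fell in every group with an shRNA, had no match. The core was held by 11 of 15 members that fell with FOXA1 knockdown and by 6 of 15 tested members that were not called lower there. For HIF1A knockdown the counts were 10 of 18 and 7 of 12. The longer letters TTTCCCGC or TTTGGCGC, which contain the core, were in 14.7% of members and 4.71% of tested genes. CCAAT was in 50% of members and 43.7% of tested genes, ACGTG, the hypoxia response core, in 35.3% and 32.8%, and TTTGAA or TTCGAA, the cell cycle homology element, in 8.82% and 14.7%. The forkhead letters TGTTTAC or TGTTTGC were in none of 34 members and in 7.14% of tested genes. These matches are descriptions of the letters and are not binding measurements.

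Of the 13 homologous recombination members 10 were tested, and 9 fell with HIF1A knockdown, 6 with FOXA1 knockdown and 9 with both, with median changes of -0.95, -0.52 and -0.97. Their summed RPKM, mostly BARD1 and RAD51C, was 33.3 to 39.1 in doubly infected, 36.2 to 36.9 in shHIF1A, 40.9 to 46.1 in shFOXA1, 42.7 to 48.1 in shFOXA1+KC7F2, 80.5 to 85.2 in control+KC7F2 and 71.8 to 77.7 in control libraries. On this sum the groups with an shRNA did not overlap the groups without one, which does not hold for each gene.

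BARD1 (chromosome 2, 214725646 to 214809711, GENCODE 29 on hg38), the obligate partner of BRCA1 in a ubiquitin ligase, had 11.7, 9.95 and 10.3 in doubly infected libraries, 7.89, 7.87 and 9.01 in shHIF1A libraries and 10.2, 9.16 and 11.1 in shFOXA1 libraries, in RPKM. It had 16.98, 13.7 and 13.2 in shFOXA1+KC7F2 libraries, 25.4, 29.4 and 26.5 in control+KC7F2 libraries and 20.6, 24.1 and 26.3 in control libraries, in RPKM. All 12 libraries with an shRNA lay below all 6 without one, and the shFOXA1+KC7F2 libraries lay between the other shRNA groups and the controls. BARD1 fell by 1.46 ± 0.12 (adjusted p = 1.06e-07) with HIF1A knockdown, by 1.18 ± 0.12 (adjusted p = 1.48e-06) with FOXA1 knockdown and by 1.11 ± 0.12 (adjusted p = 1.42e-06) with both. Its mean RPKM in those groups was 34.9%, 42.9% and 44.99% of the control mean. BRCA1 (chromosome 17, 43044295 to 43170245), which promotes end trimming and loading of the recombinase, had 0.667, 0.817 and 0.419 in doubly infected libraries, 0.609, 1.01 and 1.01 in shHIF1A libraries and 1.22, 1.47 and 1.29 in shFOXA1 libraries, in RPKM. Control libraries had 2.59, 3.04 and 2.50, in RPKM, and the shRNA libraries did not overlap the controls. BRCA1 fell by 1.51 ± 0.16 (adjusted p = 1.79e-06), 1.23 ± 0.16 (adjusted p = 1.85e-05) and 0.81 ± 0.16 (adjusted p = 0.00156) in the doubly infected, shHIF1A and shFOXA1 groups.

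RAD54L (chromosome 1, 46247688 to 46278473), a motor protein that drives strand invasion, had 0.683, 0.687 and 0.905 in doubly infected libraries, 1.93, 1.22 and 1.18 in shHIF1A libraries and 1.57, 1.72 and 1.23 in shFOXA1 libraries, in RPKM. It had 1.59, 1.19 and 1.41 in shFOXA1+KC7F2 libraries, 5.81, 5.55 and 6.20 in control+KC7F2 libraries and 3.86, 4.17 and 4.44 in control libraries, in RPKM. The doubly infected libraries were the lowest, without overlap with the single knockdowns, and the KC7F2-treated controls the highest. Its mean RPKM fell to 18.2% of the control mean with both shRNAs, 34.7% with HIF1A knockdown and 36.2% with FOXA1 knockdown (changes of -1.89 ± 0.15, -1.28 ± 0.15 and -1.22 ± 0.15, adjusted p = 8.42e-08, 7.08e-06 and 2.05e-05). RAD51AP1 (chromosome 12, 4538798 to 4560048), an accessory factor of strand exchange, had 0.812, 1.02 and 0.680 in doubly infected libraries, 1.32, 2.01 and 1.73 in shHIF1A libraries and 2.46, 1.23 and 2.39 in shFOXA1 libraries, in RPKM. Control libraries had 7.99, 5.10 and 5.38, in RPKM. Every doubly infected library was below every library of the single knockdowns, which were in turn below every control. The changes of RAD51AP1 were -2.30 ± 0.22, -1.59 ± 0.22 and -1.41 ± 0.22 (adjusted p = 3.94e-07, 2.27e-05 and 0.000136).

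PALB2 (chromosome 16, 23603160 to 23641310), the bridge between BRCA1 and BRCA2, had 3.33, 2.47 and 2.54 in doubly infected libraries, 2.11, 2.03 and 1.91 in shHIF1A libraries and 2.85, 3.87 and 2.76 in shFOXA1 libraries, in RPKM. Control libraries had 3.51, 3.49 and 3.13, in RPKM, so that the shHIF1A libraries alone lay below every control. PALB2 fell by 0.62 ± 0.14 (adjusted p = 0.00246) with HIF1A knockdown, while its change with FOXA1 knockdown was -0.09 ± 0.14 (adjusted p = 0.684). RAD54B, a relative of RAD54L, had 0.543, 0.400 and 0.616 in doubly infected libraries, 0.607, 0.496 and 0.690 in shHIF1A libraries and 1.87, 1.58 and 1.98 in shFOXA1 libraries, in RPKM. Control libraries had 1.32, 1.33 and 1.28, in RPKM. Both groups with HIF1A shRNA were below the controls and the shFOXA1 libraries above them, with a called fall of 0.73 ± 0.17 (adjusted p = 0.00224) in shHIF1A and an uncalled 0.35 ± 0.17 in shFOXA1 (adjusted p = 0.142). RAD54B reached 1 RPKM in 9 libraries, none of them with HIF1A shRNA, so the filter on low values favours its falls with HIF1A shRNA.

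The recombinase paralogs XRCC2, XRCC3, RAD51C and RAD51D, which help the recombinase onto DNA, are the other tested recombination members. XRCC2 fell by 1.34 ± 0.19 (adjusted p = 4.15e-05) with both shRNAs, 1.18 ± 0.19 (adjusted p = 0.000146) with HIF1A knockdown and 0.55 ± 0.19 (adjusted p = 0.0491) with FOXA1 knockdown. It reached 1 RPKM in 11 libraries, none of them with HIF1A shRNA, so the filter on low values favours its falls with HIF1A shRNA. RAD51C fell by 0.69 ± 0.16, 0.43 ± 0.16 and 0.48 ± 0.16 in the same order (adjusted p = 0.00275, 0.0431 and 0.0404). XRCC3 fell with both shRNAs and with HIF1A knockdown, and RAD51D with both shRNAs (0.55 ± 0.18, adjusted p = 0.0218).

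BRCA2, which loads the recombinase, and the helicases BRIP1 and BLM did not reach the filter and stood at 0.772, 0.897 and 0.888 RPKM on average in control libraries. In a fit without the filter (21919 genes), HIF1A knockdown changed BRCA2 by -0.91 ± 0.19 (adjusted p = 0.00229), BRIP1 by -0.81 ± 0.15 (adjusted p = 0.000752) and BLM by -1.18 ± 0.17 (adjusted p = 0.000152). With FOXA1 knockdown BLM changed by -0.71 ± 0.17 (adjusted p = 0.013), and BRIP1 and BRCA2 were not called (adjusted p = 0.0544 and 0.357). BLM had 0.0635, 0.0958 and 0.0982 in doubly infected libraries, 0.120, 0.0544 and 0.140 in shHIF1A libraries and 0.403, 0.373 and 0.240 in shFOXA1 libraries, in RPKM. Control libraries had 0.583, 0.858 and 1.22, in RPKM, and lay above the shRNA libraries. The level of BLM rests on about 1 to 66 reads a library.

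**Figure D3:**
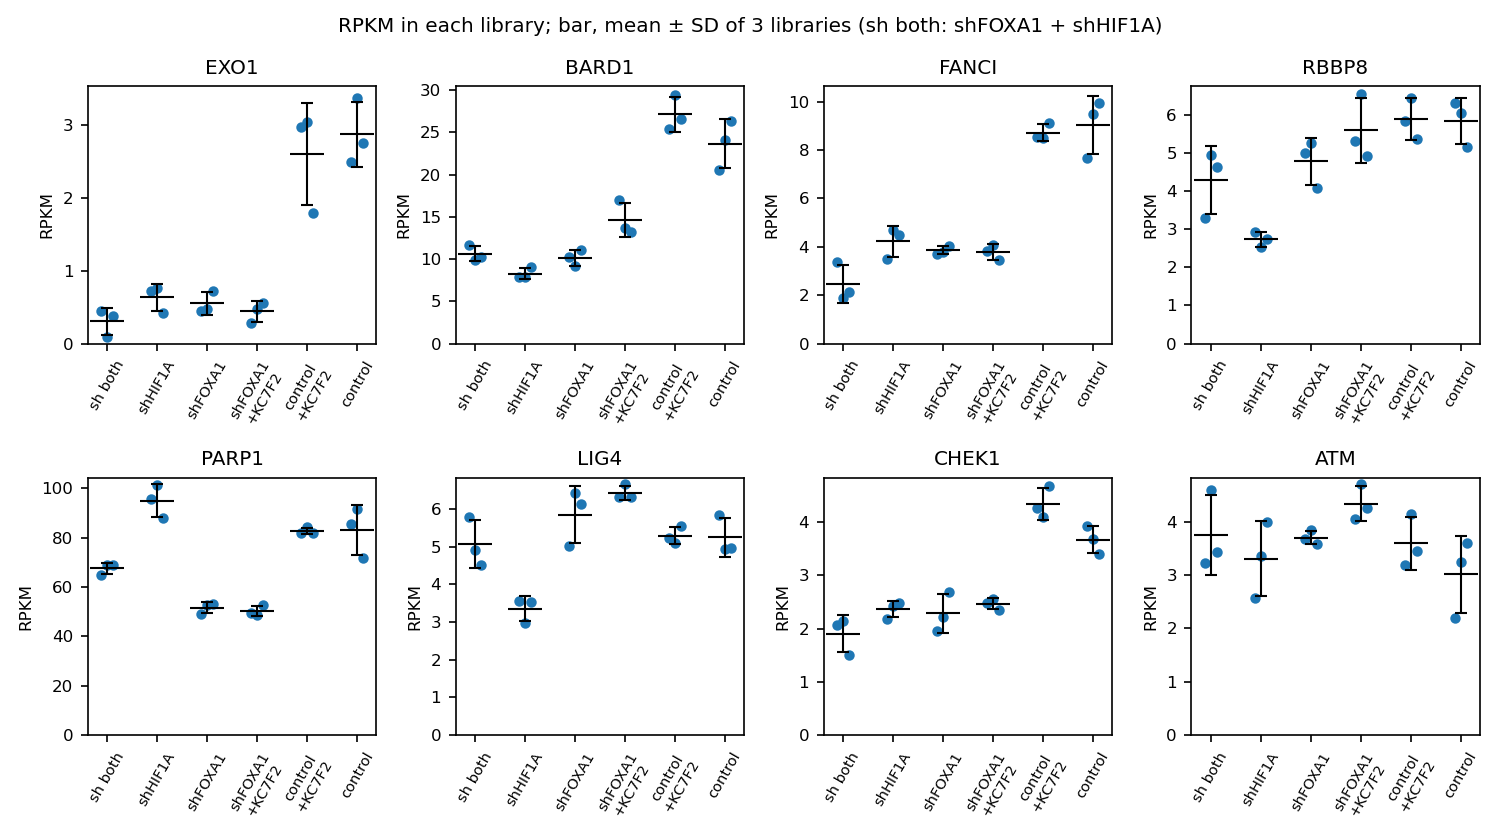
Points are RPKM in each of 18 libraries for 8 repair genes, by group on the x axis, with horizontal bars at the mean and whiskers at ± SD of 3 libraries; every y axis starts at 0. EXO1, BARD1, FANCI and CHEK1 are low in all 4 groups with an shRNA, RBBP8 and LIG4 are lowest in shHIF1A, PARP1 is lowest in the 2 groups with FOXA1 shRNA and no HIF1A shRNA, and ATM shows no low group.

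Of the 4 break sensing and end resection members, EXO1 fell in every group with an shRNA, while RBBP8 and NBN fell with HIF1A knockdown and were not called with FOXA1 knockdown. EXO1 (chromosome 1, 241847967 to 241895148), the exonuclease of long-range resection and of mismatch removal, had 0.443, 0.0891 and 0.377 in doubly infected libraries, 0.719, 0.758 and 0.422 in shHIF1A libraries and 0.450, 0.473 and 0.726 in shFOXA1 libraries, in RPKM. It had 0.283, 0.475 and 0.560 in shFOXA1+KC7F2 libraries, 2.96, 3.04 and 1.79 in control+KC7F2 libraries and 2.49, 3.37 and 2.74 in control libraries, in RPKM. Every library with an shRNA was below 1 RPKM and every library without one above it, and it was by those 6 libraries alone that EXO1 passed the filter on low values. Its mean RPKM fell to 10.6% of the control mean with both shRNAs, 22.1% with HIF1A knockdown and 19.2% with FOXA1 knockdown (changes of -2.09 ± 0.23, -1.58 ± 0.23 and -1.68 ± 0.23, adjusted p = 2.57e-06, 5.33e-05 and 5.25e-05), on about 2 to 134 reads a library.

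RBBP8 (chromosome 18, 22798261 to 23026488), the resection factor also called CtIP, had 3.28, 4.95 and 4.64 in doubly infected libraries, 2.92, 2.54 and 2.75 in shHIF1A libraries and 5.01, 5.25 and 4.08 in shFOXA1 libraries, in RPKM. It had 5.32, 6.56 and 4.91 in shFOXA1+KC7F2 libraries, 5.84, 6.45 and 5.37 in control+KC7F2 libraries and 6.31, 6.05 and 5.15 in control libraries, in RPKM. The shHIF1A libraries were below all 15 others, and the doubly infected ones overlapped shFOXA1. RBBP8 fell by 0.97 ± 0.15 (adjusted p = 6.13e-05) with HIF1A knockdown and by 0.42 ± 0.15 (adjusted p = 0.0295) with both shRNAs, and its change with FOXA1 knockdown was -0.27 ± 0.15 (adjusted p = 0.203). NBN, which recruits ATM to breaks together with RAD50, had 6.17, 6.21 and 4.82 in doubly infected libraries, 6.24, 6.82 and 6.88 in shHIF1A libraries and 9.10, 8.25 and 8.64 in shFOXA1 libraries, in RPKM. Control libraries had 9.11, 9.58 and 9.75, in RPKM, with both HIF1A shRNA groups below the controls without overlap. NBN fell by 0.69 ± 0.10 (adjusted p = 2.96e-05) and 0.48 ± 0.10 (adjusted p = 0.00078) in those groups, against -0.12 ± 0.10 in shFOXA1 (adjusted p = 0.383). RAD50, the structural arm of that complex, was not called in any comparison, with changes against control of -0.20 ± 0.13, -0.11 ± 0.13 and -0.18 ± 0.13.

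Among Fanconi members, 9 of 10 were tested, and 5 fell with both shRNAs, 4 with HIF1A knockdown and 5 with FOXA1 knockdown. Those that fell included FANCI and FANCD2, the pair that is clamped onto crosslinked DNA, and FANCA and FANCG of the core complex that ubiquitinates them. FANCI (chromosome 15, 89243949 to 89317261) had 3.36, 1.88 and 2.12 in doubly infected libraries, 3.50, 4.70 and 4.50 in shHIF1A libraries and 3.72, 3.79 and 4.03 in shFOXA1 libraries, in RPKM. It had 3.82, 4.09 and 3.44 in shFOXA1+KC7F2 libraries, 8.54, 8.49 and 9.12 in control+KC7F2 libraries and 7.65, 9.47 and 9.92 in control libraries, in RPKM. Its shRNA libraries, at 1.88 to 4.70 RPKM, were all below the libraries without an shRNA. FANCI fell by 1.71 ± 0.16 (adjusted p = 2.82e-07), 1.01 ± 0.16 (adjusted p = 8.06e-05) and 1.12 ± 0.16 (adjusted p = 5.37e-05) with both shRNAs, HIF1A knockdown and FOXA1 knockdown.

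FANCD2 (chromosome 3, 10026414 to 10101930) had 2.74, 2.75 and 2.87 in doubly infected libraries, 2.82, 3.19 and 2.87 in shHIF1A libraries and 3.36, 3.22 and 3.71 in shFOXA1 libraries, in RPKM. Control libraries had 4.87, 5.78 and 5.38, in RPKM. The 3 shRNA groups lay below the controls, and the doubly infected and shHIF1A libraries overlapped each other. FANCD2 fell by 0.83 ± 0.10 (adjusted p = 6.19e-06), 0.75 ± 0.10 (adjusted p = 1.91e-05) and 0.57 ± 0.10 (adjusted p = 0.000506) with both shRNAs, HIF1A knockdown and FOXA1 knockdown. FANCG (chromosome 9, 35073835 to 35080016) had 2.22, 2.52 and 2.12 in doubly infected libraries, 3.16, 2.83 and 2.99 in shHIF1A libraries and 4.49, 3.30 and 3.38 in shFOXA1 libraries, in RPKM. It had 4.42, 4.26 and 3.95 in shFOXA1+KC7F2 libraries, 10.7, 7.59 and 8.67 in control+KC7F2 libraries and 7.56, 6.82 and 5.97 in control libraries, in RPKM, with the doubly infected libraries lowest and no overlap between shRNA libraries and controls. Mean RPKM of FANCG fell to 33.7%, 44.1% and 54.9% of the control mean with both shRNAs, HIF1A knockdown and FOXA1 knockdown (adjusted p = 5.14e-07, 1.11e-05 and 0.000342).

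FANCC, another core complex subunit, fell with FOXA1 knockdown (0.58 ± 0.16, adjusted p = 0.0128) and with both shRNAs (0.66 ± 0.16, adjusted p = 0.003), and its change with HIF1A knockdown was -0.06 ± 0.16 (adjusted p = 0.776). FANCF, the adaptor of the core complex, had 10.1, 9.14 and 8.35 in doubly infected libraries, 10.5, 8.91 and 9.55 in shHIF1A libraries and 9.66, 8.36 and 10.3 in shFOXA1 libraries, in RPKM. Control libraries had 11.7, 9.55 and 8.55, in RPKM, and these 4 groups overlapped (changes of -0.10 ± 0.12, -0.03 ± 0.12 and -0.06 ± 0.12). FANCE, FANCL, the E3 ligase of the complex, and FANCM, its DNA translocase, were not called in these comparisons, with changes of -0.50 to 0.26. FANCB was below the filter at 0.553 RPKM on average in control libraries and changed by -0.84 with HIF1A knockdown in the fit without the filter (adjusted p = 0.0402). It was listed at 0 in doubly infected libraries 1 and 3 and in shFOXA1+KC7F2 library 3.

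In the checkpoint group the effector kinases CHEK1 and CHEK2 fell and the apical kinases ATM and ATR were not called lower. CHEK1, the kinase that ATR activates at stalled forks, had 2.07, 2.14 and 1.50 in doubly infected libraries, 2.19, 2.43 and 2.48 in shHIF1A libraries and 1.96, 2.21 and 2.68 in shFOXA1 libraries, in RPKM. It had 2.49, 2.56 and 2.35 in shFOXA1+KC7F2 libraries, 4.26, 4.10 and 4.68 in control+KC7F2 libraries and 3.92, 3.68 and 3.41 in control libraries, in RPKM. All shRNA libraries lay below all libraries without an shRNA, at 1.50 to 2.68 RPKM. CHEK1 fell by 0.80 ± 0.13 (adjusted p = 9.54e-05) with both shRNAs, 0.54 ± 0.13 (adjusted p = 0.00275) with HIF1A knockdown and 0.59 ± 0.13 (adjusted p = 0.00274) with FOXA1 knockdown. CHEK2, the kinase that ATM activates at breaks, had 1.61, 1.84 and 1.64 in doubly infected libraries, 3.44, 2.46 and 2.30 in shHIF1A libraries and 2.91, 2.65 and 3.68 in shFOXA1 libraries, in RPKM. Control libraries had 6.87, 5.05 and 3.32, in RPKM. The controls spread widely, and of these 3 shRNA groups the doubly infected one alone lay below every control. CHEK2 fell by 1.30 ± 0.20 (adjusted p = 8.43e-05) with both shRNAs, 0.75 ± 0.20 (adjusted p = 0.00692) with HIF1A knockdown and 0.60 ± 0.20 (adjusted p = 0.0409) with FOXA1 knockdown.

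ATM (chromosome 11, 108222484 to 108369102), the kinase that signals double-strand breaks, had 3.22, 4.60 and 3.43 in doubly infected libraries, 2.58, 3.36 and 3.99 in shHIF1A libraries and 3.68, 3.84 and 3.59 in shFOXA1 libraries, in RPKM. It had 4.06, 4.70 and 4.25 in shFOXA1+KC7F2 libraries, 3.18, 4.14 and 3.45 in control+KC7F2 libraries and 2.20, 3.24 and 3.60 in control libraries, in RPKM. Only the shFOXA1+KC7F2 libraries all lay above the controls. ATM was the 1 member that rose against control in any comparison, by 0.48 ± 0.17 (adjusted p = 0.0442) in shFOXA1+KC7F2, and without control 1, the lowest library, its change there was 0.30 (adjusted p = 0.214). The call was also lost without control 2 (adjusted p = 0.0574) and without shFOXA1+KC7F2 1, 2 or 3 (adjusted p = 0.0677, 0.137 and 0.0812). ATR, the kinase of stalled forks, changed by 0.17 ± 0.17, -0.05 ± 0.17 and 0.22 ± 0.17 with both shRNAs, HIF1A knockdown and FOXA1 knockdown, and TOPBP1, its activator, by -0.14 ± 0.14, -0.16 ± 0.14 and -0.03 ± 0.14, none of them called. TOPBP1 had 7.60, 6.49 and 8.06 in shFOXA1 libraries and 5.76, 8.33 and 8.76 in control libraries, in RPKM, with the groups overlapping.

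The members with the highest means in control libraries were 4 of the 5 end joining genes, all but LIG4, and PARP1 and LIG4 moved most among the 5. In control libraries XRCC6 (115 ± 21.4 RPKM, SD, n = 3) and XRCC5 (114 ± 9.54), the Ku proteins that bind broken ends, did not differ beyond their spread, PARP1 followed at 83.0 ± 10.3 and PRKDC, the kinase recruited by Ku, at 26.6 ± 6.71, while BARD1 at 23.7 ± 2.88 had the highest mean of the other members. PRKDC and BARD1 overlapped there, and in control+KC7F2 libraries BARD1 averaged 27.1 and PRKDC 21.9 RPKM.

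PARP1 (chromosome 1, 226360691 to 226408079), the enzyme that marks breaks with poly(ADP-ribose) and the target of PARP inhibitors, had 64.8, 68.9 and 68.8 in doubly infected libraries, 95.6, 101 and 87.9 in shHIF1A libraries and 49.2, 52.6 and 52.98 in shFOXA1 libraries, in RPKM. It had 49.3, 48.7 and 52.7 in shFOXA1+KC7F2 libraries, 82.03, 84.2 and 81.9 in control+KC7F2 libraries and 85.7, 91.7 and 71.7 in control libraries, in RPKM. The 6 libraries with FOXA1 shRNA and no HIF1A shRNA, at 48.7 to 53.0 RPKM, were below all others, and the doubly infected libraries lay between them and the controls. PARP1 fell by 0.67 ± 0.09 (adjusted p = 4.43e-05) with FOXA1 knockdown, by 0.71 ± 0.09 (adjusted p = 2.56e-05) with FOXA1 knockdown and KC7F2, and by 0.29 ± 0.09 (adjusted p = 0.0182) with both shRNAs. Its change with HIF1A knockdown was 0.20 ± 0.09 (adjusted p = 0.0972). The fall with both shRNAs was not called without control 2 (adjusted p = 0.0954) or without doubly infected 1 (adjusted p = 0.0582), nor under quantile normalisation (-0.18, adjusted p = 0.164).

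LIG4 (chromosome 13, 108207439 to 108218368), the ligase that seals joined ends, had 5.78, 4.92 and 4.52 in doubly infected libraries, 3.56, 2.97 and 3.54 in shHIF1A libraries and 5.01, 6.43 and 6.12 in shFOXA1 libraries, in RPKM. It had 6.31, 6.65 and 6.31 in shFOXA1+KC7F2 libraries, 5.24, 5.10 and 5.54 in control+KC7F2 libraries and 5.84, 4.93 and 4.96 in control libraries, in RPKM, with the shHIF1A libraries below all 15 others. LIG4 fell by 0.57 ± 0.11 (adjusted p = 0.000696) with HIF1A knockdown, and its changes with both shRNAs and with FOXA1 knockdown were -0.05 ± 0.11 and 0.14 ± 0.11 (adjusted p = 0.773 and 0.394). XRCC5 had 100.4, 91.4 and 89.8 in doubly infected libraries, 89.3, 96.6 and 92.6 in shHIF1A libraries and 98.1, 93.8 and 105 in shFOXA1 libraries, in RPKM. Control libraries had 125, 113 and 106, in RPKM, with the shRNA libraries below the controls. XRCC5 fell by 0.28 ± 0.09 (adjusted p = 0.0139) with both shRNAs and 0.30 ± 0.09 (adjusted p = 0.0104) with HIF1A knockdown. Under quantile normalisation its changes there were -0.13 (adjusted p = 0.27) and -0.21 (adjusted p = 0.0753). PRKDC had 21.97, 29.9 and 26.6 in doubly infected libraries, 21.6, 25.8 and 26.97 in shHIF1A libraries and 29.6, 26.8 and 30.7 in shFOXA1 libraries, in RPKM. Control libraries had 19.6, 27.3 and 32.96, in RPKM, with overlapping groups and changes of -0.01 ± 0.17, -0.08 ± 0.17 and 0.15 ± 0.17, and XRCC6 was not called in any comparison.

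Both mismatch repair members were modestly lower. MSH6 (chromosome 2, 47695530 to 47810101), the subunit that recognises base mismatches, had 10.01, 7.89 and 7.58 in doubly infected libraries, 7.64, 7.27 and 7.43 in shHIF1A libraries and 8.29, 7.75 and 8.33 in shFOXA1 libraries, in RPKM. Control libraries had 11.3, 10.4 and 10.2, in RPKM. No shRNA library reached the lowest control, and doubly infected 1 came nearest. MSH6 fell by 0.32 ± 0.11 (adjusted p = 0.0257) with both shRNAs, 0.49 ± 0.11 (adjusted p = 0.0018) with HIF1A knockdown and 0.37 ± 0.11 (adjusted p = 0.0199) with FOXA1 knockdown. PMS2, the endonuclease of the pathway, had 6.71, 7.02 and 8.28 in doubly infected libraries, 7.49, 6.79 and 8.21 in shHIF1A libraries and 8.15, 8.49 and 8.86 in shFOXA1 libraries, in RPKM. Control libraries had 8.75, 9.04 and 9.23, in RPKM, so that both groups with HIF1A shRNA lay below the controls. PMS2 fell by 0.25 ± 0.09 (adjusted p = 0.0392) with HIF1A knockdown and 0.28 ± 0.09 (adjusted p = 0.0225) with both, against -0.08 ± 0.09 with FOXA1 knockdown (adjusted p = 0.582). PMS2, CHEK2, FANCD2, XRCC6 and BRCA1 have near-identical copies elsewhere in the genome, and how reads were shared between copies is not given in the sources used here.

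Some of these calls rested on single libraries. With FOXA1 knockdown RAD51C was not called without control 1 or shFOXA1 2 or 3 (adjusted p = 0.196, 0.11 and 0.131), XRCC2 without control 1 or 2 or shFOXA1 1, 2 or 3 (0.0678 to 0.206), and FANCA without control 2 or 3 or shFOXA1 1 or 3 (0.0548 to 0.218). CHEK2 was not called there without control 1 or 2 or shFOXA1 1 or 2 (adjusted p = 0.0993 to 0.212), nor MSH6 without control 1 or shFOXA1 2 (0.0727 and 0.0685). With HIF1A knockdown the calls that were lost were RAD51C without control 1 or 3 or any shHIF1A library (0.0532 to 0.206), XRCC3 without control 2 (0.0578), and PMS2 without any 1 control or shHIF1A 1 or 2 (0.0518 to 0.171). With both shRNAs RAD51D was not called without control 1 or doubly infected 3 (adjusted p = 0.0742 and 0.105), XRCC3 without control 1 or 2 or doubly infected 2 or 3 (0.0762 to 0.116), and RBBP8 without control 1 or 2 or doubly infected 1 (0.0793 to 0.16). XRCC5 was not called there without control 1 or doubly infected 3 (0.0535 and 0.0562), MSH6 without control 1 or doubly infected 2 or 3 (0.0819 to 0.114), and PMS2 without control 2 or 3 or doubly infected 1 or 2 (0.0527 to 0.0903). The calls of BRCA1, BARD1, RAD51AP1, RAD54L, EXO1, FANCD2, FANCG, FANCI and CHEK1 held in all 3 comparisons under every setting in which they were tested.

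KC7F2 in control cells left the repair genes without a call, where 1.05% of all tested genes rose and 0.992% fell in limma. At an unadjusted p below 0.05 there were 3 members, RAD54L, FANCG and PMS2 (8.57%), a share below the 11.9% of all genes. RAD54L had 5.81, 5.55 and 6.20 in control+KC7F2 libraries and 3.86, 4.17 and 4.44 in control libraries (RPKM, a change of 0.45 ± 0.15, adjusted p = 0.202). FANCG had 10.7, 7.59 and 8.67 in control+KC7F2 libraries and 7.56, 6.82 and 5.97 in control libraries, a change of 0.37 ± 0.13 (adjusted p = 0.226). RAD54L and FANCG were higher in every control+KC7F2 library than in every control, and how many of all genes separate this way was not counted. Changes over the 35 ran from -0.34 to 0.45. Control+KC7F2 1 and 3 and control 1 are the libraries with more short-gene signal, and leaving them out leaves 1 control+KC7F2 library, too few to say whether they matter here. Over all genes the split was 135 higher and 128 lower as deposited and 100 higher and 194 lower after median-ratio scaling.

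Set directly against KC7F2-treated controls, HIF1A knockdown lowered 22 members and raised none, with 19.6% of all genes lower and 23% higher. BARD1 was lower by 1.66 ± 0.12 (adjusted p = 2.38e-08), RAD54L by 1.73 ± 0.15 (adjusted p = 2.91e-07) and LIG4 by 0.59 ± 0.11 (adjusted p = 0.000549). RAD54B differed by -0.39 ± 0.17 (adjusted p = 0.0726), on 0.607, 0.496 and 0.690 RPKM in shHIF1A libraries and 0.947, 0.711 and 1.17 RPKM in control+KC7F2 libraries. The RAD51D call was lost without shHIF1A 1 or 3 or any control+KC7F2 library (adjusted p = 0.0589 to 0.208), and that of XRCC5 without shHIF1A 1 or control+KC7F2 3 (0.0666 and 0.0937) or under quantile normalisation (-0.09, adjusted p = 0.424, beside -0.27 ± 0.09). PARP1 was called higher in this comparison under median-ratio scaling (0.20, adjusted p = 0.0458) and under quantile normalisation (0.35, adjusted p = 0.00834). It was also called without control 3 (0.19, adjusted p = 0.0445), a library outside this comparison that enters only the spread estimated over all groups. Control+KC7F2 1 and 3 have more short-gene signal, and leaving them out leaves 1 control+KC7F2 library. RAD51C, XRCC3 and NBN then differed by -0.36, -0.66 and -0.41, and RAD51D and XRCC5 by -0.37 and -0.22. With 1 library on that side, these sizes do not show whether the calls hold.

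With FOXA1 shRNA and KC7F2 together, the 17 members below control were BRCA1, BARD1, RAD51AP1, RAD51C, RAD51D, RAD54L, XRCC2, NBN, EXO1, FANCD2, FANCG, FANCI, CHEK1, CHEK2, XRCC5, PARP1 and MSH6. EXO1 fell by 1.85 ± 0.23 (adjusted p = 2.08e-05), RAD54L by 1.30 ± 0.15 (adjusted p = 1.09e-05) and BARD1 by 0.68 ± 0.12 (adjusted p = 0.000418). Calls were lost for RAD51C without control 1 or shFOXA1+KC7F2 2 (adjusted p = 0.0511 and 0.0547), RAD51D without control 1 or shFOXA1+KC7F2 2 or 3 (0.0688 to 0.0968), CHEK2 without control 1 (0.0526) and MSH6 without control 1 or shFOXA1+KC7F2 1 (0.0795 and 0.111), and for XRCC5 under quantile normalisation (-0.07, adjusted p = 0.609, beside -0.32 ± 0.09). LIG4 was called higher under median-ratio scaling (0.35, adjusted p = 0.0226), quantile normalisation (0.32, adjusted p = 0.0436) and length and GC correction (0.30, adjusted p = 0.0364).

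On top of FOXA1 knockdown KC7F2 raised 1 member, BARD1, and lowered none, with 1.71% of all genes higher and 2.37% lower. BARD1 had 16.98, 13.7 and 13.2 in shFOXA1+KC7F2 libraries and 10.2, 9.16 and 11.1 in shFOXA1 libraries, in RPKM, a rise of 0.50 ± 0.12 (adjusted p = 0.0223) with no overlap. The call was lost without shFOXA1 1 or 2 (adjusted p = 0.0678 and 0.106) or shFOXA1+KC7F2 1 (adjusted p = 0.117). Within KC7F2-treated cells FOXA1 knockdown lowered 20 members and raised none, with 24.1% of all genes lower and 8.88% higher. Falls included RAD54L by 1.75 ± 0.15 (adjusted p = 4.16e-07), EXO1 by 1.71 ± 0.23 (adjusted p = 4.61e-05) and PARP1 by 0.71 ± 0.09 (adjusted p = 2.46e-05). Without the 3 libraries with more short-gene signal, which leave 1 control+KC7F2 library, 13 members were lower, and median-ratio scaling, which moved the median of all genes by 0.15, gave 15 lower and 2 higher, ATR (0.53, adjusted p = 0.0465) and LIG4 (0.42, adjusted p = 0.00863). Leaving out 1 library lost the call of XRCC3 (without any control+KC7F2 library or shFOXA1+KC7F2 3, adjusted p = 0.059 to 0.156), NBN (without control+KC7F2 2 or 3 or shFOXA1+KC7F2 2 or 3, 0.0512 to 0.111) and FANCC (without control+KC7F2 1 or 2 or shFOXA1+KC7F2 1 or 3, 0.0586 to 0.16). It also lost FANCE (without control+KC7F2 1 or shFOXA1+KC7F2 1, both 0.0953) and XRCC5 (without control+KC7F2 3 or shFOXA1+KC7F2 1 or 2, 0.0533 to 0.0852). Median-ratio scaling ended the calls of NBN (-0.13, adjusted p = 0.379), XRCC5 (-0.11, adjusted p = 0.291), MSH6 (-0.25, adjusted p = 0.0791), XRCC3 (-0.28, adjusted p = 0.158) and FANCC (adjusted p = 0.143). The interaction of FOXA1 knockdown with KC7F2 was not called for any member (0.0155% of all genes higher and 0.062% lower in limma), with 2 members, RAD51D and RAD54L, at an unadjusted p below 0.05, beside 6.76% of all genes.

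Adding HIF1A knockdown to FOXA1 knockdown lowered 10 members further and raised 1, where 13.5% of all genes fell and 24% rose. Of the recombination genes RAD54B fell by 1.18 ± 0.17 (adjusted p = 3.64e-05), RAD51AP1 by 0.88 ± 0.22 (adjusted p = 0.00424), XRCC2 by 0.79 ± 0.19 (adjusted p = 0.00453), BRCA1 by 0.70 ± 0.16 (adjusted p = 0.00311) and RAD54L by 0.67 ± 0.15 (adjusted p = 0.00277). NBN, FANCA, FANCG, FANCI and CHEK2 also fell, by 0.53 to 0.70. PARP1 rose by 0.38 ± 0.09 (adjusted p = 0.00358), on 64.8, 68.9 and 68.8 in doubly infected libraries and 49.2, 52.6 and 52.98 in shFOXA1 libraries, in RPKM, without overlap. FOXA1 mRNA was itself higher in doubly infected than in shFOXA1 libraries (64.5 against 34.1 RPKM). Added HIF1A depletion and weaker FOXA1 depletion therefore cannot be told apart in this comparison. The FANCA call was lost without shFOXA1 2 or 3 or doubly infected 1 (adjusted p = 0.0962 to 0.0997) and that of CHEK2 without shFOXA1 3 (adjusted p = 0.0616).

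In HIF1A-depleted cells FOXA1 knockdown lowered 5 members and raised 2, where 9.25% of all genes fell and 5.27% rose. The falls were FANCI (0.70 ± 0.16, adjusted p = 0.00582), RAD51AP1 (0.70 ± 0.22, adjusted p = 0.0376), RAD54L (0.61 ± 0.15, adjusted p = 0.0133), FANCC (0.59 ± 0.16, adjusted p = 0.0174) and PARP1 (0.49 ± 0.09, adjusted p = 0.00178). The rises were RBBP8 (0.55 ± 0.15, adjusted p = 0.0172), on 3.28, 4.95 and 4.64 in doubly infected libraries and 2.92, 2.54 and 2.75 in shHIF1A libraries, and LIG4 (0.53 ± 0.11, adjusted p = 0.00449), on 5.78, 4.92 and 4.52 in doubly infected libraries and 3.56, 2.97 and 3.54 in shHIF1A libraries, in RPKM and without overlap for either gene. BARD1, which had an adjusted p of 0.0589, was called higher without control 1 or 3 or shFOXA1+KC7F2 1 (0.039, 0.0479 and 0.0449) and without the 3 libraries with more short-gene signal (0.0478). All of these libraries lie outside this comparison. The change of BARD1 stayed at 0.35, and only the spread estimated over all groups and the adjustment moved. PARP1, FANCI and LIG4 kept their call whichever library of the groups compared was left out. RAD51AP1 lost it without shHIF1A 2 or 3 or doubly infected 1 or 3 (adjusted p = 0.0804 to 0.15), RAD54L without shHIF1A 1 (0.0798), FANCC without shHIF1A 2 or doubly infected 2 (0.0747 and 0.0852) and RBBP8 without shHIF1A 2 or doubly infected 2 or 3 (0.0685 to 0.0867).

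The effect of FOXA1 knockdown differed between the 2 backgrounds for 5 members, as tested by the interaction term, all with a less negative or a positive change in HIF1A-depleted cells (3.16% of all genes were called in that direction and 4.45% in the other). BARD1 changed by 0.35 ± 0.12 in HIF1A-depleted cells (adjusted p = 0.0589) and by -1.18 ± 0.12 without HIF1A shRNA, a difference of 1.53 ± 0.17 (adjusted p = 2.46e-05). RBBP8 differed by 0.82 ± 0.21 (adjusted p = 0.022), EXO1 by 1.17 ± 0.33 (adjusted p = 0.0395), MSH6 by 0.54 ± 0.15 (adjusted p = 0.0414) and FANCD2 by 0.50 ± 0.14 (adjusted p = 0.0422). RBBP8 lost its interaction call without 5 of 12 libraries (adjusted p = 0.0524 to 0.0634), EXO1 without 10 (0.0525 to 0.0935), FANCD2 without 9 (0.061 to 0.097) and MSH6 without 9 (0.0602 to 0.092), and BARD1 kept it. The FOXA1 shRNA left 64.5 RPKM of FOXA1 in doubly infected and 34.1 RPKM in shFOXA1 libraries, and the part of this difference in depletion was not tested. Of the cell division genes outside repair 11 of 35 had an interaction in the same direction and none in the other.

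**Figure D4:**
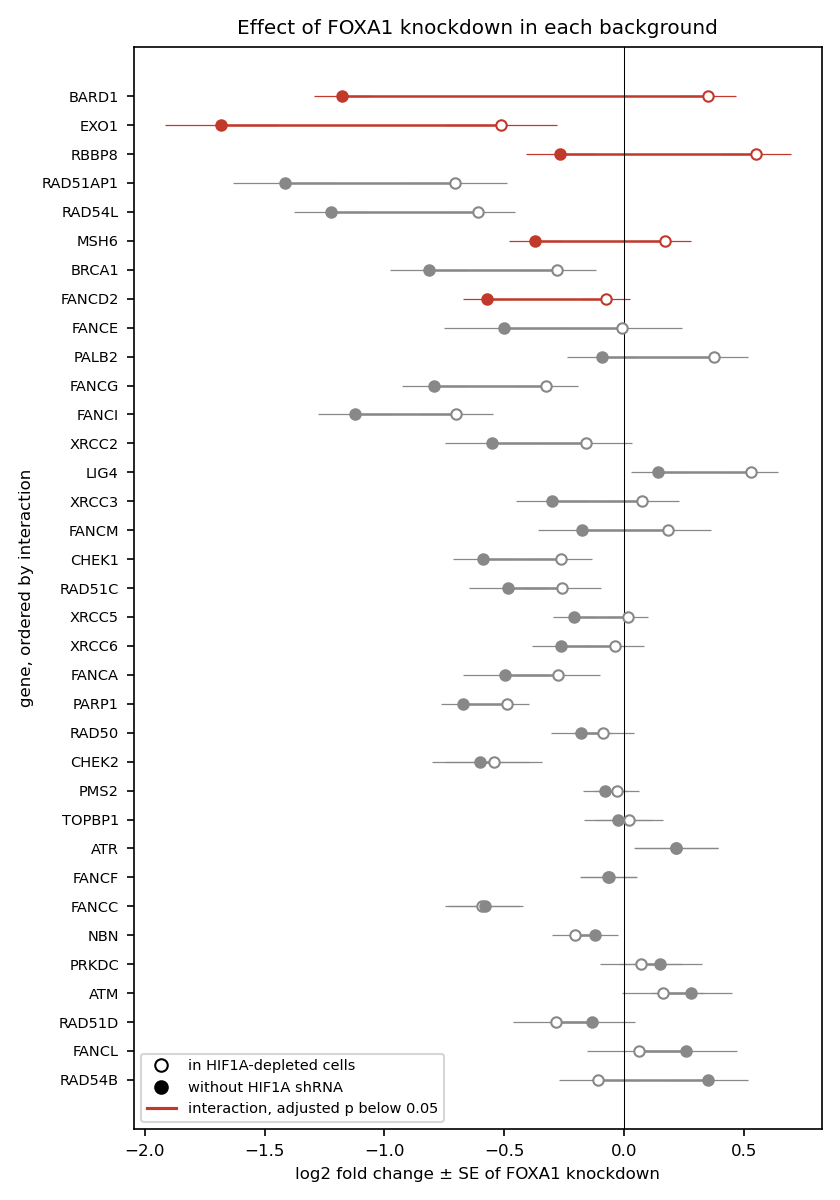
For each of the 35 tested repair genes (rows, ordered by the difference) the log2 fold change ± SE of FOXA1 knockdown is shown in HIF1A-depleted cells (open circles) and in cells without HIF1A shRNA (filled circles), and red marks an interaction with an adjusted p below 0.05. The 5 red genes are BARD1, EXO1, RBBP8, MSH6 and FANCD2, and BARD1 has the widest gap at 1.53.

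The 2 knockdowns were also set directly against each other, a comparison added after the values had been seen. HIF1A knockdown left 7 members lower and 2 higher than FOXA1 knockdown, where 14% of all genes were lower and 30.3% higher. Lower were RAD54B by 1.08 ± 0.17 (adjusted p = 6.06e-05), LIG4 by 0.72 ± 0.11 (adjusted p = 7.62e-05), RBBP8 by 0.70 ± 0.15 (adjusted p = 0.000885), XRCC2 by 0.63 ± 0.19 (adjusted p = 0.0149), PALB2 by 0.53 ± 0.14 (adjusted p = 0.00679), BRCA1 by 0.42 ± 0.16 (adjusted p = 0.0477) and NBN by 0.36 ± 0.10 (adjusted p = 0.00615). PARP1 was higher by 0.87 ± 0.09 (adjusted p = 1.09e-06), on 95.6, 101 and 87.9 in shHIF1A libraries and 49.2, 52.6 and 52.98 in shFOXA1 libraries, in RPKM, and FANCC by 0.51 ± 0.16 (adjusted p = 0.0134). The median over all genes was 0.14 in this comparison and -0.01 after median-ratio scaling, which called 13 members lower and 1 higher. BRCA1 lost its call without shHIF1A 1 or any shFOXA1 library (adjusted p = 0.0636 to 0.225), XRCC2 without shHIF1A 1 (0.0664) and FANCC without shHIF1A 2 (0.0516).

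Repair genes outside the 39 were looked at for context in lists chosen with earlier results of these data known. Over all 12900 tested genes, 9.52% rose and 14.6% fell with FOXA1 knockdown, and 25.9% rose and 16.1% fell with HIF1A knockdown. Of 25 tested genes of recombination and crosslink repair, 1 rose and 6 fell with FOXA1 knockdown and 9 fell with HIF1A knockdown. ERCC4, a crosslink nuclease subunit, rose by 1.59 ± 0.13 (adjusted p = 2.18e-07) with FOXA1 knockdown and fell by 0.58 ± 0.13 (adjusted p = 0.00239) with HIF1A knockdown, while UBE2T, the E2 enzyme of the Fanconi pathway, fell by 1.27 ± 0.18 with FOXA1 knockdown and 1.11 ± 0.18 with HIF1A knockdown. Of 17 end joining and break response genes 2 fell with FOXA1 knockdown (H2AFX and PARP2), and 3 rose and 6 fell with HIF1A knockdown. The histone gene H2AFX fell by 1.08 ± 0.14 with FOXA1 knockdown. Of 13 other mismatch repair genes 7 fell in each single knockdown, among them RFC5 and POLD2 of the replication machinery with FOXA1 knockdown (-0.62 ± 0.10 and -0.58 ± 0.13).

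Among 13 further checkpoint genes 5 fell with FOXA1 knockdown, led by CDC25C and CLSPN (-1.50 ± 0.22 and -0.87 ± 0.17), and 2 rose and 7 fell with HIF1A knockdown. Base excision repair had 5 of 15 genes lower with FOXA1 knockdown, FEN1 and UNG among them (-1.05 ± 0.17 and -0.79 ± 0.14), and 3 higher and 5 lower with HIF1A knockdown. Nucleotide excision repair had 1 of 19 higher and 2 lower with FOXA1 knockdown, and 3 higher and 4 lower with HIF1A knockdown. XPC, its damage sensor, rose by 0.44 ± 0.11 (adjusted p = 0.0103) with FOXA1 knockdown and 0.88 ± 0.11 (adjusted p = 1.52e-05) with HIF1A knockdown, and GTF2H3 fell by 0.54 ± 0.11 and 0.80 ± 0.11. Translesion synthesis had 3 of 12 lower with FOXA1 knockdown, UBE2A and RAD18 among them, and 2 higher and 2 lower with HIF1A knockdown. For lists this small, the nucleotide excision and translesion counts lay near the shares over all genes given above. So did the count of end joining and break response genes with FOXA1 knockdown.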

How the data were processed

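The authors deposited RPKM values for each of 18 libraries, and STAR and hg38 are named in the submitters' processing notes. How reads were counted, against which annotation and whether by strand is not given in the sources used here, so reads of overlapping or antisense genes cannot be told apart. Of 26475 lines 32 were empty and dropped. By symbol, 23883 of 26443 genes matched GENCODE 29. log2(RPKM + 0.5) was fitted with limma 3.58.1 in R 4.3.3 (eBayes with intensity trend, two-sided, 12 residual degrees of freedom) for the 12900 genes that reached 1 RPKM in 3 libraries or more, with 1 mean per group and 13 contrasts, each adjusted by Benjamini-Hochberg and called below 0.05. No adjustment was made over the contrasts, and those against control share the 3 control libraries. Depth was read from 2367 genes no longer than 200 nt, where low values are multiples of 1 read (93.8 to 96.7% whole within 2%). At 3.21 to 11.96 (in 1000000 reads), counting error is part of the spread for low genes. RefSeq promoters (GRCh38.p14) matched 34 of 39 members, and RAD54B, XRCC5, PRKDC, FANCI and NBN had no entry. Python 3.11.15 with pandas 2.3.3, numpy 2.4.6 and matplotlib 3.10.9 was used for the rest, and the fit was tested on simulated data.

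The members and gene lists were chosen with earlier results of these data known. In each role, the text gives library values for the 2 members of smallest and the 1 of largest adjusted p in FOXA1 knockdown, for members that rose against control or had a called interaction, and for RAD51AP1, RAD54B, LIG4, BRCA1 and BLM, which were chosen after their values were seen. The contrast of HIF1A knockdown against FOXA1 knockdown was added after seeing the data. Alternatives were another pseudocount, filter, scaling, variance model or sample set, a replicate block, a length and GC correction, and leaving out libraries. Replicate numbers were checked for pairing and did not pair the libraries across all groups.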

Additional observations from a re-analysis of the deposited data

Results flagged for a closer look

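For 5 repair genes the change with FOXA1 knockdown differed between cells with and without HIF1A shRNA by the test of the interaction itself (limma, adjusted over 12900 genes). The difference was 1.53 ± 0.17 (adjusted p = 2.46e-05) for BARD1, 0.82 ± 0.21 (adjusted p = 0.022) for RBBP8, 1.17 ± 0.33 (adjusted p = 0.0395) for EXO1, 0.50 ± 0.14 (adjusted p = 0.0422) for FANCD2 and 0.54 ± 0.15 (adjusted p = 0.0414) for MSH6, on the log2 scale. In HIF1A-depleted cells the FOXA1 effect on these genes was 0.35 ± 0.12, 0.55 ± 0.15, -0.51 ± 0.23, -0.07 ± 0.10 and 0.17 ± 0.11 in that order, and without HIF1A shRNA it was -1.18 ± 0.12, -0.27 ± 0.15, -1.68 ± 0.23, -0.57 ± 0.10 and -0.37 ± 0.11. BARD1 kept its call under every alternative and without each library. EXO1, which is below 1 RPKM in all 12 shRNA libraries, had an adjusted p of 0.204 with a pseudocount of 0.1, and RBBP8 had 0.0703 without the 3 libraries with more short-gene signal. FOXA1 mRNA was higher in doubly infected than in shFOXA1 libraries (64.5 against 34.1 RPKM), and its part in these differences was not tested.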

How the results depend on the processing

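Among single called members under all alternatives, 2468 results kept direction and call, 281 kept direction without the call and 1 was reversed. That was XRCC5 with FOXA1 knockdown in KC7F2-treated cells, which changed by 0.042 (adjusted p = 0.766) under quantile normalisation. A filter of 5 RPKM, which tests 22 members, called 10 members with FOXA1 knockdown, 15 with both shRNAs, 7 for HIF1A knockdown added to FOXA1 knockdown, 13 for FOXA1 knockdown with KC7F2 present, 3 for the interaction of both knockdowns and 4 for HIF1A against FOXA1 knockdown. Of the 8832 genes tested there, 872 rose and 1565 fell with FOXA1 knockdown, and 2244 rose and 2021 fell with both shRNAs. In the remaining comparisons, in that order, 2497 and 1315, 841 and 2797, 335 and 412, and 3095 and 1314 genes rose and fell. RAD51AP1, RAD54L, FANCD2, FANCG, FANCI and CHEK2 reached 5 RPKM only in libraries without an shRNA, so that filter favours their falls. Fitting only the groups compared called 11 for FOXA1 knockdown with KC7F2 against control, 0 for KC7F2 added to FOXA1 knockdown, 1 for FOXA1 knockdown in HIF1A-depleted cells and 2 for the interaction. The interaction had 3 calls with a pseudocount of 0.1, 2 without a filter, 2 without the 3 libraries with more short-gene signal and 2 after length and GC correction. Without an intensity trend KC7F2 added to FOXA1 knockdown had 2 calls, and median-ratio scaling gave 14 for HIF1A against FOXA1 knockdown. FOXA1 knockdown in KC7F2-treated cells had 13 calls without those 3 libraries. Leaving out 1 library at a time gave 12 to 18 calls with FOXA1 knockdown, 20 to 22 with HIF1A knockdown, 18 to 23 with both, 0 to 1 for KC7F2 added to FOXA1 knockdown, 4 to 6 for FOXA1 knockdown in HIF1A-depleted cells and 2 to 3 for the interaction. Shares over all genes are not given for fits on fewer groups or libraries, another pseudocount or no intensity trend. Those counts describe the members alone.

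Replicate numbers did not pair the libraries across all groups. Of 45 same-numbered pairs 9 correlated above 0.1 (median r = -0.0082), and 7 of 18 libraries correlated best with their own number. Control 1 correlated with control+KC7F2 1, shHIF1A 1 and doubly infected 1 (r = 0.25, 0.22 and 0.19), and control 3 with control+KC7F2 3 at -0.21. Pairing of some libraries is not excluded by these values. With the replicate block 15 members were called with FOXA1 knockdown, 22 with HIF1A knockdown, 23 with both and 3 for the interaction. Shares over all genes are not given for the block fit. Over all genes, median-ratio scaling moved the split in FOXA1 knockdown with KC7F2 to 1702 higher and 1851 lower, beside 1298 and 2241 as deposited. For HIF1A knockdown added to FOXA1 knockdown it was 2260 and 2383, beside 3096 and 1745. For FOXA1 knockdown in KC7F2-treated cells it was 1875 and 1824, beside 1145 and 3105, and for HIF1A against FOXA1 knockdown 2842 and 2648, beside 3903 and 1802. Low counts limit FANCB, BLM, EXO1, BRCA2, BRIP1, RAD54B, RAD51AP1 and RAD54L, which had fewer than 10 reads in their lowest library.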
